A study of Gallus gallus with 4 samples.

Results

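Mucins and the genes that make mucous cells were examined in the trachea of chickens at 42 days of age. The genes were taken by name from the deposited count table: MUC, LOC395381, AGR2, SPDEF and every symbol that starts with MUC and a digit. This gave 10 of the 26296 genes in the table, and all 10 had enough reads to be among the 16545 genes tested. For description, 4 were set together as secreted mucins (LOC395381, MUC2, MUC6 and, without its identity being known, MUC), 4 are membrane mucins (MUC1, MUC4, MUC13 and MUC16) and 2 are factors of goblet cells (AGR2 and SPDEF). MUC, LOC395381, AGR2 and SPDEF were chosen because they stood higher in exposed birds in an earlier look at the same libraries, so the contrast between exposed and control birds is given for all 10 as a description, with no test.

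Exposed birds were kept in a chamber supplied with anhydrous hydrogen sulfide, an irritant gas of poultry houses. Its level was held between 3.5 and 4.5 mg/kg in weeks 0 to 3 and between 19.5 and 20.5 mg/kg in weeks 4 to 6, while no gas was fed to the control chamber. Gas and chamber went together, so their effects cannot be told apart. There are 2 libraries of whole-trachea RNA per group. The labels give neither breed nor sex, nor the number of birds behind a library, so errors and p-values measure only the spread between these libraries.

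Airway mucus is a gel of secreted mucins, very large glycoproteins that goblet cells and mucous glands store in granules and release onto the ciliated surface. Membrane mucins stay anchored in the apical membrane and form a brush over the cell. In mammals the ETS factor SPDEF drives goblet cell differentiation, and AGR2, a protein disulfide isomerase of the endoplasmic reticulum, is needed to fold gel-forming mucins. LOC395381 is named OVOA in a RefSeq gene table of assembly GRCg7b, where its synonyms are alpha-ovomucin and MUC5B. The gene listed as MUC6 is named OVOB there, also with the synonym ovomucin. The ovomucins are best known as the proteins that give thick egg white its gel. The symbol MUC has no entry in that table, so which mucin it stands for is not known here.

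Depth and tissue were checked first. The libraries held 16899066 to 22706119 counted reads. The trachea's defining markers were abundant: the cartilage collagen COL2A1 stood between 2793 and 12943 CPM (counts scaled to a common library size, with TMM factors) and the ciliary dynein gene DNAH9 between 525 and 748 CPM. Tissue content differed between the libraries. The summed level of 10 cartilage genes was 18979 and 28087 CPM in exposed libraries 1 and 2 and 6326 and 31460 CPM in control libraries 1 and 2. Summed skeletal muscle markers ranged from 1677 CPM in control library 2 to 9627 CPM in control library 1. Reads of 43 genes on the female-specific W chromosome summed to 488 and 489 CPM in exposed library 1 and control library 2 but to 151 and 136 CPM in exposed library 2 and control library 1, so each group holds 1 library of each kind.

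MUC, AGR2 and SPDEF stood about equally far above control. MUC was read at 5168 and 3299 CPM in exposed libraries 1 and 2 and at 866 and 1595 CPM in control libraries 1 and 2. The groups did not overlap, and the log2 fold change was 1.78 (SE 0.45, n = 2 libraries per group). Its share of all counted reads was 0.501% and 0.321% in the exposed pair against 0.0912% and 0.160% in the controls. AGR2 was read at 419 and 354 CPM in the exposed pair and at 86.6 and 131 CPM in the controls. Both exposed libraries lay above both controls, giving a log2 fold change of 1.83 (SE 0.27). SPDEF was read at 117 and 72.1 CPM against 15.9 and 38.1 CPM. Its groups did not overlap either, giving a log2 fold change of 1.81 (SE 0.50), which was 2.56 without control library 2 and 1.31 without control library 1.

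These 3 genes also had the same order among libraries of the same group. In each of them exposed library 1 was the higher of the exposed pair, by 1.57 times for MUC, 1.19 times for AGR2 and 1.62 times for SPDEF. Control library 1 was the lower of the control pair, at 0.543, 0.659 and 0.416 times control library 2. In both groups the higher library was the one with more W chromosome reads, and the part of that difference was not tested. The ratio of MUC reads to AGR2 reads kept within 9.33 and 12.3 over the 4 libraries, and that of MUC to SPDEF within 41.8 and 54.6. That of AGR2 to SPDEF ranged from 3.45 to 5.46. These are ratios of reads, not of molecules, because transcript lengths were not available here. The 3 genes were chosen for the same contrast, so steady ratios over the 4 libraries largely repeat that choice. With 2 libraries per group, the order within the groups says little, and MUC1 shared it at few reads (1.46 and 0.330 times).

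**Figure D1:**
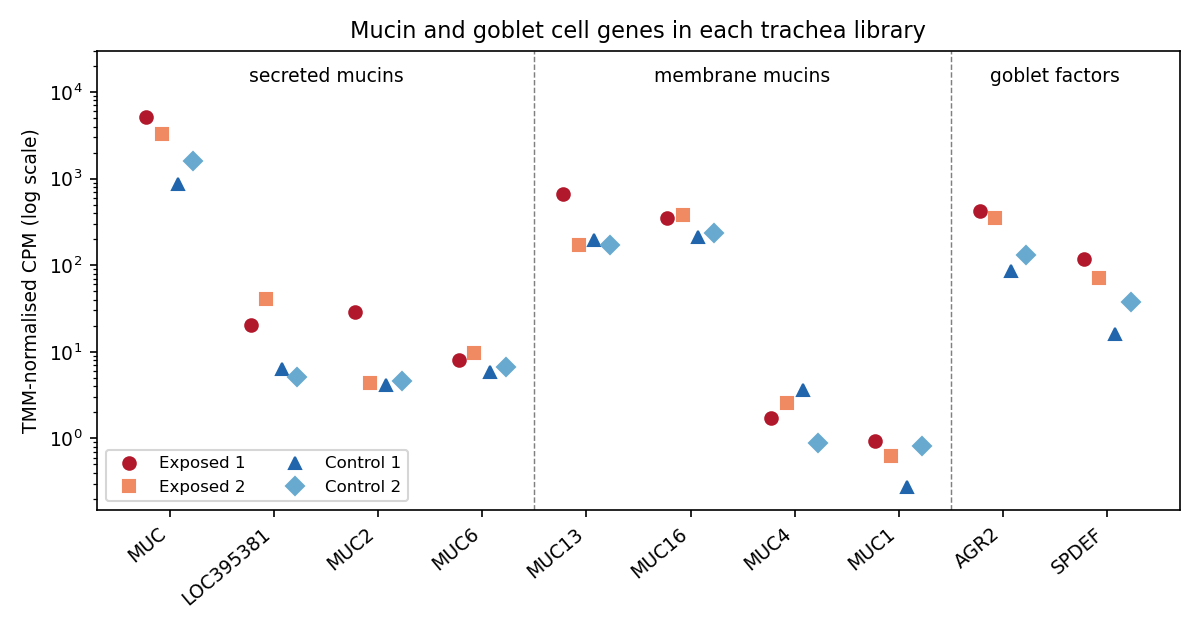
Level of each of the 10 genes in each library, in TMM-normalised CPM on a log axis, with exposed libraries in red tones and control libraries in blue tones. MUC, LOC395381, MUC6, MUC16, AGR2 and SPDEF show both exposed points above both control points, while MUC2 and MUC13 are high in exposed library 1 alone.

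Of the other secreted mucins, LOC395381 had the largest fold change of the 10 genes, on few reads. It had 440 and 909 reads in the exposed pair and 116 and 86 reads in the controls, or 20.4 and 41.1 CPM against 6.33 and 5.07 CPM. The log2 fold change was 2.43 (SE 0.42). Here the order within the groups was the reverse of that of MUC: exposed library 2 was the higher of its pair, and control library 1 was the higher of its own. Without exposed library 2 the log2 fold change was 1.84, and without exposed library 1 it was 2.85. MUC6 was read at 7.97 and 9.64 CPM against 5.83 and 6.67 CPM, with no overlap and a log2 fold change of 0.49 (SE 0.27).

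MUC2, the gel-forming mucin of the gut, stood apart in a single library. It had 619 reads in exposed library 1 but 97 in exposed library 2, against 75 and 79 in the controls, or 28.7, 4.39, 4.09 and 4.66 CPM. Exposed library 2 lay between the controls. The log2 fold change of 1.92 (SE 0.90) was 0.01 without exposed library 1. No direction can be read from MUC2 for the exposed group.

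The membrane mucins were less alike. MUC16, which forms a barrier on the apical surface of airway and ocular epithelium, was read at 354 and 384 CPM in the exposed pair and at 213 and 233 CPM in the controls. Libraries of a group differed by less than the groups did, and the log2 fold change was 0.72 (SE 0.17), with a range of 0.66 to 0.78 when each library was left out in turn. MUC13, a mucin with EGF-like domains, was read at 661 and 171 CPM against 198 and 173 CPM. As with MUC2, exposed library 1 alone was high: exposed library 2 lay just below both controls, and the log2 fold change of 1.16 (SE 0.65) was -0.11 without exposed library 1.

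MUC4, which binds the receptor ERBB2 in mammals, had few reads: 37 and 56 in the exposed pair against 66 and 15 in the controls. The groups overlapped, giving a log2 fold change of -0.08 (SE 0.75), while the controls differed from each other by 4.07 times. MUC1, a signalling mucin of many epithelia, had 20 and 14 reads against 5 and 14. The groups overlapped for MUC1 too, and its log2 fold change was 0.51 (SE 0.72). With so few reads and 2 libraries per group, no direction is read for either gene.

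In all, 6 of the 10 genes were higher in both exposed libraries than in both controls, against 15.3% of all tested genes. Because the genes were chosen from this contrast, nothing is read from that share. The log2 fold change was above 0 for 9 of the 10 genes, against 51.6% of all tested genes, and nothing is read from this count either. For 7 it stayed above 0 whichever library was left out, but for MUC2, among these 7, it fell to 0.01. The exceptions were MUC1, MUC4 and MUC13, whose sign turned when a library was left out. The matching share of all tested genes is not given here.

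**Figure D2:**
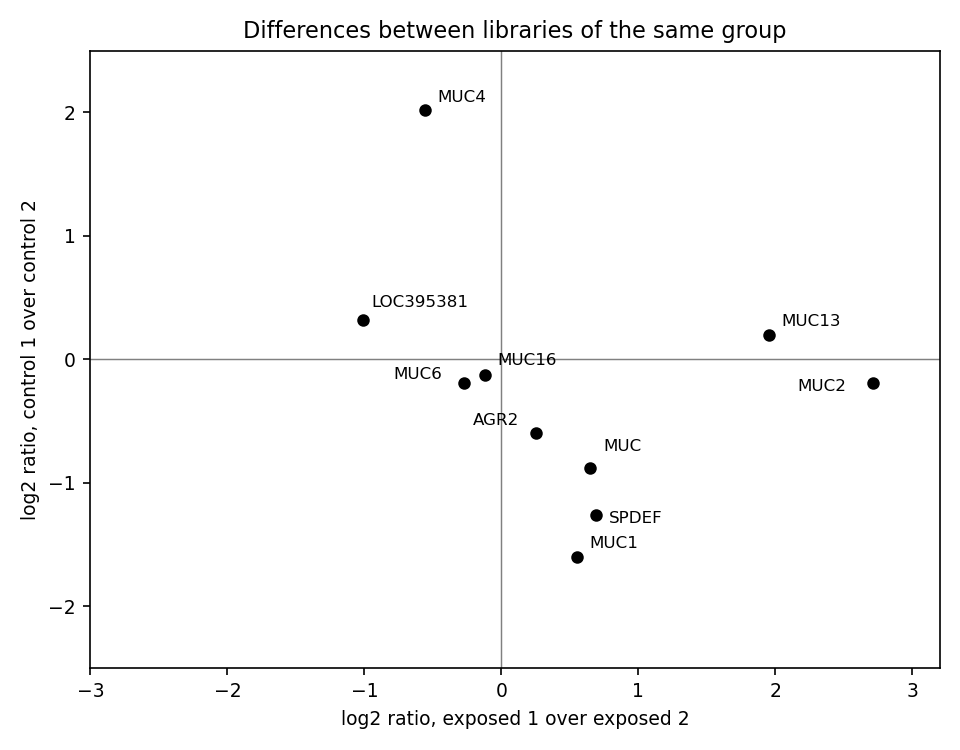
Difference between libraries of the same group for each gene: the horizontal axis gives the log2 ratio of exposed library 1 over exposed library 2, the vertical axis that of control library 1 over control library 2, both in CPM. AGR2, MUC, SPDEF and MUC1 lie in the lower right part, MUC2 (2.71) and MUC13 (1.95) lie far to the right, and LOC395381 (-1.01) lies to the left.

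The genes set together as secreted mucins made up a larger part of the mucin reads in the exposed pair. Of the reads of the 8 mucin genes, the 4 secreted ones held 83.7% in exposed library 1 (95% Wilson interval 83.5 to 83.9) and 85.7% in exposed library 2 (85.5 to 86.0). In control library 1 they held 68.0% (67.4 to 68.6) and in control library 2 they held 79.8% (79.4 to 80.2). The intervals cover counting error only. Nearly all reads of the secreted class were those of MUC (111591 of 112822 in exposed library 1), whose identity is not known here and whose contrast was used to choose the genes, so this share repeats that choice and was not tested.

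The levels were also set against the epithelial adhesion gene EPCAM, since a whole-trachea library can hold more or less epithelium. EPCAM stood at 546 and 609 CPM in the exposed pair and at 512 and 486 CPM in the controls (log2 fold change 0.21, SE 0.19; unadjusted p = 0.325 by edgeR). MUC reads per EPCAM read were 9.46 and 5.42 in the exposed pair against 1.69 and 3.28 in the controls. AGR2 reads per EPCAM read were 0.768 and 0.581 against 0.169 and 0.270. SPDEF reads per EPCAM read were 0.213 and 0.118 against 0.0310 and 0.0784. These ratios kept the groups apart, as did that of MUC16, at 0.647 and 0.630 against 0.417 and 0.479, whereas that of MUC13 overlapped, at 1.21 and 0.281 against 0.388 and 0.356. Since MUC, AGR2 and SPDEF were chosen for the same contrast and EPCAM was near level, the ratios largely repeat that choice. Other denominators, tried after the values were seen, gave another result in some cases. Of 14 epithelial markers, 13 kept the groups apart for MUC, for AGR2 and for SPDEF, and 9 did so for MUC16. For the first 3 this count also largely repeats the choice of the genes. Some ratios were barely apart, such as SPDEF over GRHL2, at 0.440 in exposed library 2 and 0.419 in control library 2. The exception for the first 3 was LOC101749333, named KRT18 in the reference table, against which MUC had ratios of 181 and 88.5 in the exposed pair and 97.4 and 145 in the controls. More mucous cells and more mucin RNA in each such cell cannot be told apart in bulk RNA.

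LOC395381, MUC2 and MUC6 lie in a row with related mucin genes on chromosome 5 of the reference table, while MUC4, MUC13, MUC1 and MUC16 lie on chromosomes 9, 7, 10 and 28. The row runs in the order TOLLIP, MUC5L, MUC5ACL, a long noncoding gene, OVOA, MUC2, OVOB and AP2A2, leaving out loci that were not matched to the count table. By gene ID, MUC5L is LOC107053414 and MUC5ACL is LOC107053416 of the count table. Both were added after their values were seen. LOC107053414 was read at 2813 and 2102 CPM in the exposed pair and at 419 and 736 CPM in the controls, giving a log2 fold change of 2.09 (SE 0.39; edgeR quasi-likelihood adjusted p = 0.657). It ran close to MUC: the ratio of MUC reads to its reads was 1.84 and 1.57 in the exposed pair and 2.07 and 2.17 in the controls. Whether MUC and LOC107053414 are separate genes, or share reads, is not known from the files, so their values are not independent. LOC107053416 was read at 282 and 222 CPM against 157 and 139 CPM, giving a log2 fold change of 0.77 (SE 0.20; adjusted p by edgeR = 0.799).

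The genes that flank the row stood level between the groups. TOLLIP, an inhibitor of toll-like receptor signalling, was read at 164 and 156 CPM against 154 and 171 CPM (log2 fold change -0.02, SE 0.16). AP2A2, a subunit of the clathrin adaptor, was read at 227 and 238 CPM against 237 and 227 CPM (log2 fold change 0.00, SE 0.16). AGR3, which the reference table places next to AGR2, was read at 1.02 and 0.814 CPM against 1.80 and 1.59 CPM. Its log2 fold change of -0.88 (SE 0.44; adjusted p by edgeR = 0.999) had the opposite sign to that of AGR2, at 18 to 33 reads per library.

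**Figure D3:**
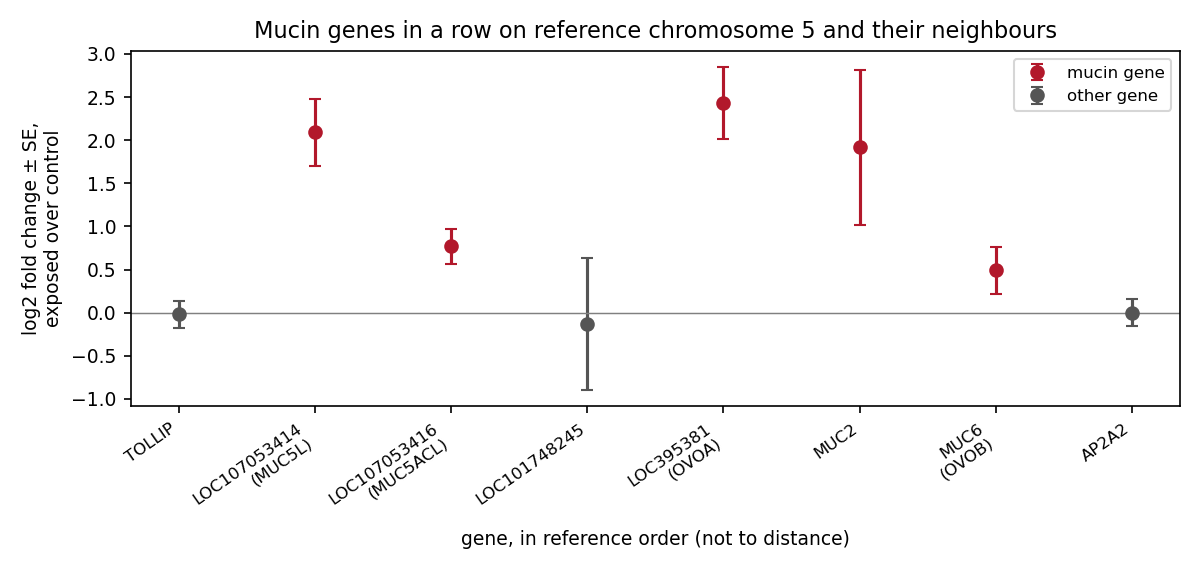
Log2 fold change (exposed over control) with its standard error for the genes of the mucin row on reference chromosome 5, in reference order and without distances, with mucin genes in red. The mucins lie between 0.49 and 2.43, and the flanking genes TOLLIP and AP2A2 lie at -0.02 and 0.00.

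Genes that share the goblet cell programme were read from lists of known function. The lists were chosen with earlier results of these data known, so their counts are given as description. Across all 16545 tested genes, edgeR's quasi-likelihood test called 0% at the threshold of 0.05 on the adjusted p, whose smallest value was 0.596, so no gene of any list passed. At an unadjusted p under 0.05 it had 904 genes, or 5.46%, and DESeq2 called 132 genes, or 0.798%. The median log2 fold change of all tested genes was 0.01, and 51.6% of them were above 0.

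Other transcription factors of secretory cells were divided in sign. Of 15 tested regulators besides SPDEF, 6 had a positive and 9 a negative log2 fold change, with a median of -0.04. The largest positive value was that of CREB3L1, a membrane-bound factor that expands the secretory pathway, at 179 and 164 CPM in the exposed pair against 106 and 107 CPM in the controls. Its log2 fold change was 0.69 (SE 0.15; edgeR unadjusted p = 0.00706, adjusted p = 0.754), and its groups did not overlap. FOXA2, which restrains goblet cell formation in the mouse airway, was read at 6.07 and 8.69 CPM against 8.29 and 9.38 CPM (log2 fold change -0.26, SE 0.30). The airway factor NKX2-1 was read at 12.7 and 12.4 CPM against 17.6 and 12.6 CPM (log2 fold change -0.26, SE 0.25). CREB3L2, with the most reads of the list, lay at a log2 fold change of -0.32 (SE 0.28). XBP1, a factor of the unfolded protein response, stood at 98.2 and 94.1 CPM against 84.6 and 98.5 CPM. ATOH1, which specifies secretory cells in the gut, had no read in any library.

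Products of secretory cells other than AGR2 were mixed. Of 17 tested genes, 11 had a positive and 6 a negative log2 fold change, with a median of 0.36, but without exposed library 1 the median was -0.12 and the count was 7 positive and 10 negative. PIGR, the receptor that carries polymeric immunoglobulin into secretions, was read at 2046 and 1466 CPM against 1564 and 1022 CPM, which overlap (log2 fold change 0.44, SE 0.34). Lysozyme, LYZ, was read at 48.2 and 54.3 CPM against 46.8 and 26.5 CPM (log2 fold change 0.48, SE 0.31). BCAS1 and the chloride-loading cotransporter SLC12A2 showed log2 fold changes of 0.72 (SE 0.45) and 0.59 (SE 0.37), both with overlap. TFF2, a trefoil peptide secreted beside gastric mucins in mammals, had at most 0.059 CPM in any library.

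Within this list, 3 genes shared the single-library pattern of MUC2 and MUC13, and they are named here after their values were seen. FCGBP, a mucus protein that binds to MUC2 in the gut, was read at 11.9 CPM in exposed library 1 and at 1.45 CPM in exposed library 2, against 3.00 and 2.42 CPM in the controls. LOC424523, which the reference table names CLCA1, a secreted protease of goblet cell mucus, was read at 13.0 and 0.724 CPM against 0.982 and 0.826 CPM. CLCA2 was read at 5.97 and 0.860 CPM against 1.69 and 0.413 CPM, so exposed library 2 lay between the controls. Reads were few: CLCA2 had 129 and 19 against 31 and 7. Outside exposed library 1, FCGBP had 32 to 55 reads and LOC424523 had 14 to 18. In each of the 3, exposed library 2 lay below the control mean, and the log2 fold change without exposed library 1 was -0.90, -0.32 and -0.29.

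**Figure D4:**
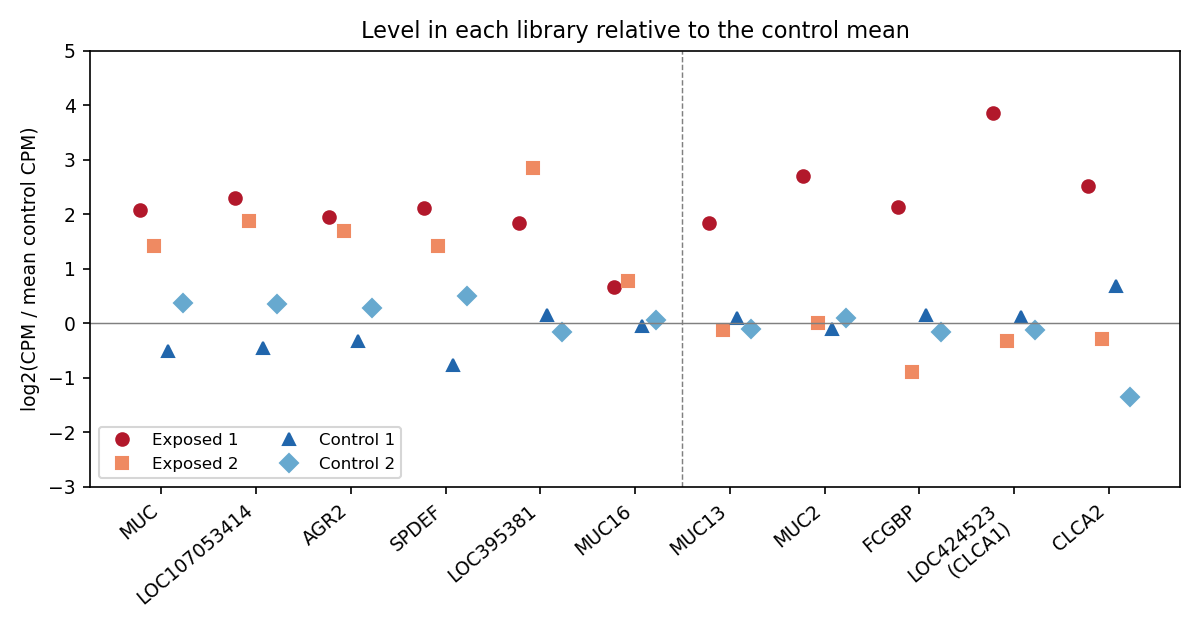
Level of each gene in each library as log2 of its CPM over the mean CPM of the controls. Left of the dashed line both exposed libraries lie above both controls, and right of it exposed library 1 lies 1.83 to 3.85 above the control mean while exposed library 2 lies between -0.90 and 0.00.

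The enzymes that build mucin sugars lay mostly near level, with a few larger values. The list held 34 tested genes of O-glycosylation and its sulfate and sialic acid supply, counting FUT8, which is an enzyme of N-glycans. Of the 34, 24 had a positive and 10 a negative log2 fold change, with FUT8 among the negative ones. The median of the 34 was 0.21 and ranged from 0.05 without control library 1 to 0.39 without control library 2. The log2 fold change was above 1 for 3 of them, CHST4, GCNT3 and B3GNT7, against 3.00% of all tested genes. CHST4, a sulfotransferase, had 63 and 20 reads against 14 and 10. GCNT3, which makes the branched cores of mucin glycans, was read at 9.22 and 9.32 CPM in the exposed pair against 2.45 and 6.43 CPM in the controls (log2 fold change 1.06, SE 0.51; adjusted p by edgeR = 0.999; 0.53 to 1.90 over fits with a library left out). PAPSS2, which makes the sulfate donor, was read at 131 and 160 CPM against 37.5 and 108 CPM without overlap (edgeR unadjusted p = 0.119). PAPSS2 is also a gene of cartilage, and control library 1 had the least cartilage RNA, whose part in this value was not tested. SLC35A1, the Golgi transporter of activated sialic acid, was read at 49.3 and 47.5 CPM against 29.8 and 33.2 CPM (log2 fold change 0.62, SE 0.16; adjusted p by edgeR = 0.799). B3GNT7 overlapped between the groups, at 24.3 and 12.8 CPM against 2.34 and 15.8 CPM. GALNT1, with the most reads of the list and among the enzymes that start O-glycans, was near level at 0.22 (SE 0.22) on the log2 scale. In the list 10 genes were higher and 5 lower in both exposed libraries, against 15.3% and 17.2% of all tested genes. The lower ones include GALNT3, at 109 and 117 CPM against 178 and 152 CPM. Its log2 fold change was -0.54 (SE 0.16; edgeR unadjusted p = 0.0243, adjusted p = 0.859). GCNT1 and LOC428479, named GCNT2 in the reference table, were also lower, at -0.79 (SE 0.64) and -0.89 (SE 0.47) on few reads.

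The machinery that releases mucin granules was near level. Of 19 tested genes, 11 had a positive and 8 a negative log2 fold change, with a median of 0.12. EXPH5, a RAB27 effector, was read at 115 and 119 CPM against 73.9 and 77.5 CPM (log2 fold change 0.62, SE 0.14; edgeR unadjusted p = 0.00826, adjusted p = 0.768). UNC13D, a priming factor of granule fusion, was read at 9.22 and 9.23 CPM against 7.85 and 15.8 CPM, which overlap. SYTL2 and MYRIP, which also bind RAB27, showed log2 fold changes of 0.33 (SE 0.33) and 0.30 (SE 0.22).

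Of the signals known to act on mucous cells, 18 of 32 tested genes had a positive and 14 a negative log2 fold change, with a median of 0.09. IL22RA1, the epithelial receptor chain for interleukin 22, was read at 59.3 and 64.8 CPM in the exposed pair and at 29.8 and 29.6 CPM in the controls. Its libraries differed little within each group, giving a log2 fold change of 1.06 (SE 0.15, adjusted p by edgeR = 0.596). With the 10 mucin and goblet cell genes left out, the 5 lists of the goblet cell programme held 15, 17, 34, 19 and 32 tested genes. IL22RA1 was the only one of these that DESeq2 called, against 0.798% of all tested genes, and nothing is read from that call. HBEGF, a ligand of the EGF receptor, was read at 10.9 and 21.7 CPM against 2.24 and 10.1 CPM, a log2 fold change of 1.40 (SE 0.79) that was 0.70 to 2.86 over fits with a library left out. IL13RA2, a decoy receptor for interleukin 13, was read at 34.0 and 33.1 CPM against 17.1 and 23.1 CPM (log2 fold change 0.74, SE 0.22; adjusted p by edgeR = 0.852). LOC769039, named HES1 in the reference table and a target of Notch, was read at 14.2 and 9.82 CPM against 7.85 and 5.43 CPM (log2 fold change 0.85, SE 0.34). NOTCH2 was near level at a log2 fold change of 0.09 (SE 0.25). NOTCH1 was lower without overlap, at 147 and 145 CPM against 179 and 173 CPM (log2 fold change -0.27, SE 0.15). So was the Notch ligand DLL4, at 38.6 and 32.4 CPM against 41.7 and 45.2 CPM (log2 fold change -0.29, SE 0.18). In the list 6 genes were higher and 5 lower in both exposed libraries, against 15.3% and 17.2% of all tested genes. IL13 and IL4, the main inducers of mucous cells in mammals, had at most 0.109 CPM and no read, respectively.

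Other cell types were read from marker lists, and the part of each in the mucin values was not tested. These lists too were chosen with earlier results of these data known, so their counts are description. Of 14 epithelial markers, 11 had a positive and 3 a negative log2 fold change, with a median of 0.20, and their summed level was 2218 and 2731 CPM in the exposed pair against 2397 and 2151 CPM in the controls, which overlap. Of the 14, 7 were higher in both exposed libraries and 0 were lower in both, against 15.3% and 17.2% of all tested genes. The keratin KRT7 was level (log2 fold change -0.01, SE 0.27), GRHL2, a factor of epithelial identity, had 0.64 (SE 0.17), and LOC101749333 (KRT18) had 1.73 (SE 0.25; adjusted p by edgeR = 0.596). DESeq2 called 1 of the 14 epithelial markers, LOC101749333, and 1 of 4 tested squamous markers, SPINK5. It also called 4 of 10 B cell markers, IRF4, IGJ, TNFRSF13B and POU2AF1, against 0.798% of all tested genes. It called 0 of the tested markers of ciliated cells (15), basal cells (7), skeletal muscle (7), cartilage (10) and thyroid (3). The edgeR and limma-voom tests called 0 genes in all. Of 15 markers of ciliated cells, 8 were positive and 7 negative (median 0.03). Of 7 markers of basal cells, the stem cells of airway epithelium, 3 were positive and 4 negative. Their factor TP63 was read at 52.6 and 41.3 CPM against 84.9 and 69.0 CPM (log2 fold change -0.71, SE 0.21, adjusted p by edgeR = 0.850). TP63 was the only basal marker whose groups did not overlap. The basal keratins KRT14 and KRT15 had the opposite sign, at 0.36 (SE 0.68) and 0.34 (SE 0.63).

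The 10 markers of B cells and plasma cells include BLNK, which is named SH2D6 in the reference table. All 10 had a negative log2 fold change, with a median of -0.97. All 10 were also lower in both exposed libraries, against 17.2% of all tested genes. Their summed level was 1197 and 1014 CPM in the exposed pair and 6274 and 4925 CPM in the controls. The difference between the groups thus had the opposite direction to that of MUC. The joining chain gene IGJ made up most of these sums, and without it they were 242 and 253 CPM against 435 and 586 CPM. Of markers of oesophagus and squamous epithelium, 4 of 4 tested genes were positive, but KRT6A and PPL overlapped between the groups. TGM3, which was not tested, was lower in both exposed libraries, at 0.232 and 0.226 CPM against 0.382 and 2.12 CPM. The summed levels of the list were 1232 and 1625 CPM against 764 and 681 CPM. The sum was led by SPINK5, a protease inhibitor of stratified epithelium, at 921 and 1084 CPM against 374 and 394 CPM (log2 fold change 1.38, SE 0.21; adjusted p by edgeR = 0.596). Every tested gene of cartilage and of skeletal muscle overlapped between the groups, while 15.3% of all tested genes were higher and 17.2% lower without overlap. All 10 cartilage genes were positive, with a median of 0.38 that was -0.41 without control library 1 and 2.11 without control library 2. Of 7 skeletal muscle genes 6 were positive, with a median of 0.23 that was 2.14 without control library 1 and -0.46 without control library 2. Of 5 thyroid markers, 3 were tested and all were negative, with summed levels of 7.96 to 21.8 CPM.

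**Figure D5:**
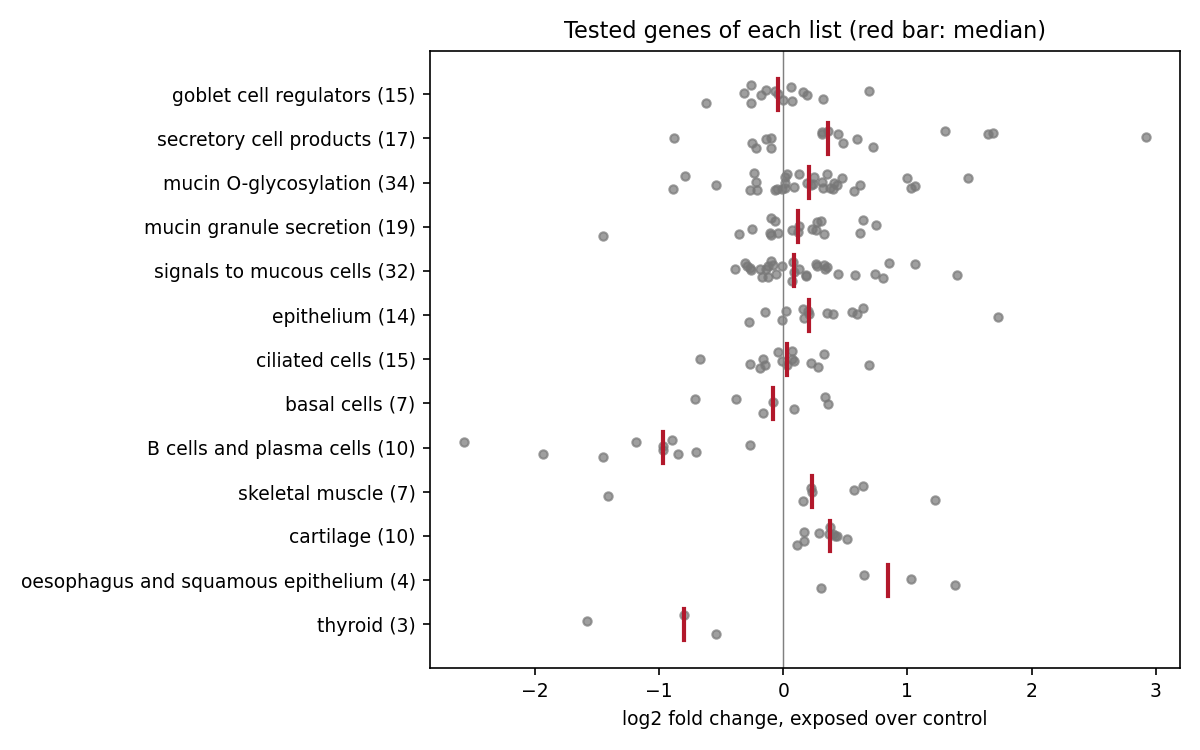
Log2 fold change (exposed over control) of every tested gene of each list, without the 10 mucin and goblet cell genes, with the number of genes in brackets and a red bar at the median. The lists of the goblet cell programme have medians between -0.04 and 0.36, and B cells and plasma cells lie lowest, at -0.97.

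Genes whose pattern over the 4 libraries was most like that of MUC were ranked among 11917 other genes with a mean of at least 5 CPM. The measure was the Euclidean distance between log2 CPM values after subtracting each gene's mean, so a low value means similar differences among the libraries. The nearest was LOC107053415 at a distance of 0.16, read at 691 and 459 CPM in the exposed pair against 104 and 203 CPM in the controls. It has no entry in the reference table, and whether it shares reads or a locus with MUC is not known from the files. LOC100857569, named CLC2DL4 there, followed at 0.25, SPDEF at 0.28, the transglutaminase TGM4 at 0.29 and BPIL3, of the BPI family of airway secretions, at 0.31. AGR2 ranked 6 at 0.35 and LOC107053414 ranked 7 at 0.36. MUC16, LOC395381, MUC13, MUC6 and MUC2 were farther off, at 1.33 to 1.59.

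Around AGR2 the order was TGM4 at 0.25, LOC100857569 at 0.27, LOC423462 at 0.30, LOC107053414 at 0.34 and MUC at 0.35. TGM4 was read at 356 and 299 CPM in the exposed pair and at 70.1 and 133 CPM in the controls, and BPIL3 at 3682 and 2143 CPM against 460 and 986 CPM. The 4 libraries are the same ones that set the group difference, so nearness here repeats that contrast. The same ranking around MUC13, chosen after its values were seen, began with MGAM, a maltase of the gut brush border, at 0.30. MGAM was read at 26.9 CPM in exposed library 1 and at 5.55 to 6.51 CPM in the other libraries. EIF2AK2, the interferon-induced kinase PKR, followed at 0.50 with 273 CPM in exposed library 1 and 56.3 to 91.4 CPM elsewhere. MUC2 ranked 36 in that list at 0.76.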

How the data were processed

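The authors deposited raw read counts per gene, in 1 table with a column per library. HISAT2 was the aligner, per the submitters' processing notes. Not given in the sources used here are its version, the counting program, genome build, annotation and strand setting, so no coordinates are printed. Reads of related mucin genes could have been shared or dropped at the counting step.

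The counts were filtered with filterByExpr by group, scaled by TMM and tested with edgeR 4.0.16 (glmQLFit and glmQLFTest) in R 4.3.3, two-sided, with no covariate and 2 residual degrees of freedom. Benjamini-Hochberg adjustment ran over all 16545 tested genes, with calls at an adjusted p under 0.05. Standard errors are the absolute log2 fold change over the square root of F. The common biological coefficient of variation was 33.1%. Alternatives were DESeq2 1.42.0, limma 3.58.1 (voom), other scalings, no filter, each library left out and a replicate block. The fit was also run on simulated counts, whose outcome is not given here, so nothing is read from it about the power of the test.

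The genes and lists were chosen with earlier results of these data known. Of 245 list entries in 13 lists, 202 were found, 6 of them by gene ID. The basal marker KRT15 and the epithelial marker KRT19 are named KRT13 and KRT24 in the reference table. Named from each list were the 4 largest absolute log2 fold changes at a mean of at least 5 CPM and the highest mean, and the 5 genes nearest to MUC and to AGR2 with a prior count of 2. Of the marker lists of other cell types only some of these are printed. Other genes were named after their values were seen.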

Additional observations from a re-analysis of the deposited data

How the results depend on the processing

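With 2 libraries per group, edgeR called 0 genes under each scaling, filter, block and left-out library, and limma-voom called 0, whereas DESeq2 called 132 genes; the cause was not tested. With a library left out, the lone library of its group is assumed to vary like the other group. The log2 fold changes then ranged from 1.84 to 2.85 for LOC395381, from -0.08 to 1.48 for MUC1, from -0.11 to 1.83 for MUC13, from 0.01 to 2.71 for MUC2, from -0.77 to 1.27 for MUC4 and from 1.31 to 2.56 for SPDEF. They ranged from 1.41 to 2.28 for MUC, from 1.56 to 2.15 for AGR2, from 0.66 to 0.78 for MUC16 and from 0.35 to 0.63 for MUC6. Members with a positive log2 fold change then numbered 7 to 13 among secretory cell products and 9 to 13 among epithelial markers, and those with a negative one 4 to 10 and 1 to 5.

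The labels give both groups replicates 1 and 2 without saying that the numbers pair. Over all tested genes, same-numbered libraries did not deviate together (r = -0.00197 over 16545 genes). Tissue content was an exception: library 1 had the lower summed cartilage level in both groups and the higher summed skeletal muscle level in both. The cartilage sums were 18979 and 28087 CPM in exposed libraries 1 and 2 and 6326 and 31460 CPM in the controls. Those of skeletal muscle were 9040 and 4292 CPM against 9627 and 1677 CPM. Whether the libraries pair was not tested by this. With replicate number as a block, edgeR called 0 genes, with 984 at an unadjusted p under 0.05 against 904 without it, and the log2 fold changes were 1.81 for MUC, 1.85 for AGR2, 1.89 for SPDEF and 2.35 for LOC395381. MUC4 had 0.17 with the block and 0.18 with limma-voom, against -0.08. Under the alternatives that kept all libraries, 137 of the recomputed values moved by less than the spread between replicates or, for counts, by at most 1.5 times. The 1 that moved more was the number of genes called, 0 with edgeR and 132 with DESeq2. Low reads limit MUC1, MUC4, LOC424523, CLCA2 and FCGBP.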
